A study of Homo sapiens with 6 samples.

Results

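The genes described here are the metalloproteinases of the MMP, ADAM and ADAMTS families, the ADAMTS-like proteins and the TIMP inhibitors, in ARPE-19 cells transfected with satellite alpha. ARPE-19 is a widely used human cell line derived from retinal pigment epithelium. The SATalpha group received a GFP plasmid that also carries satellite alpha, the tandem repeat of human centromeres, and the GFP group received the GFP plasmid without it, at 2.5 µg of plasmid per well in both. Each group had 3 wells and 3 arrays, with total RNA labelled with biotin for Affymetrix 3′ expression arrays. The labels did not say whether wells were separate cultures, so the p-values rest on well-to-well spread that may be technical. They gave neither the share of transfected cells nor the time of harvest.

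Members were chosen by name: every probe set with a single gene symbol of the form MMP, ADAM, ADAMTS, ADAMTSL or TIMP plus a number, without antisense genes and pseudogenes. The rule found 176 of 49372 probe sets, from 68 of 18132 genes: 22 MMP, 19 ADAM, 18 ADAMTS, 5 ADAMTSL and 4 TIMP genes. A further 4 probe sets matched the letters and were left out, 2 for several symbols, 1 for an antisense RNA and 1 for a pseudogene. The brightest probe set stood for each gene, by its mean signal. Of the 68 genes, 29 had a mean log2 signal above the floor of 5.19, under which the lowest 40% of all genes fell, and entered the test. The other 39 were not tested as genes. In the separate test over probe sets the floor was 4.62. There ADAM11, ADAMTS2, ADAMTS15, ADAMTS20, ADAMTSL3, ADAMTSL4 and TIMP4 were tested, and none of these passed.

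Metalloproteinases are zinc enzymes that cut matrix proteins and cell surface proteins. MMPs and ADAMTS proteases act mainly on the matrix outside the cell, membrane-type MMPs and ADAMs sit in the plasma membrane, and most are made as inactive precursors. ADAM10 and ADAM17 release growth factors, cytokines and receptors from the surface. TIMPs bind the active enzymes and block them. In the eye the retinal pigment epithelium secretes TIMP3 into Bruch's membrane, the matrix layer beneath it, and TIMP3 mutations cause Sorsby fundus dystrophy.

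Few of these genes differed, and the differences were small. With satellite alpha, 3 of the 29 tested genes rose by limma's adjusted p (ADAMTS1, ADAMTS5 and MMP14) and 2 fell (ADAM15 and ADAM19). Without GFP replicate 1 the 3 that rose were called and neither that fell was. These 5 calls are 17.2% of the tested members, against 20.8% of all 10879 tested genes, so the members were not called more often than other genes. Among all tested genes 7.72% rose and 13% fell. The median log2 difference of the tested members was 0.03, against -0.02 over all tested genes, and the median size was 0.07 against 0.09. No tested member passed the threshold with a change of 1.5-fold or more (0 of 29, by limma), as 0.818% of all tested genes did. An unadjusted limma p under 0.05 was found in 6 of the 29, against 3692 of all 10879 tested genes. The groups did not overlap in 8 of the 29 (27.6%), against 37.6% of all tested genes. In RNA of whole wells, fewer cells of a type and less RNA per cell cannot be told apart.

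**Figure D1:**
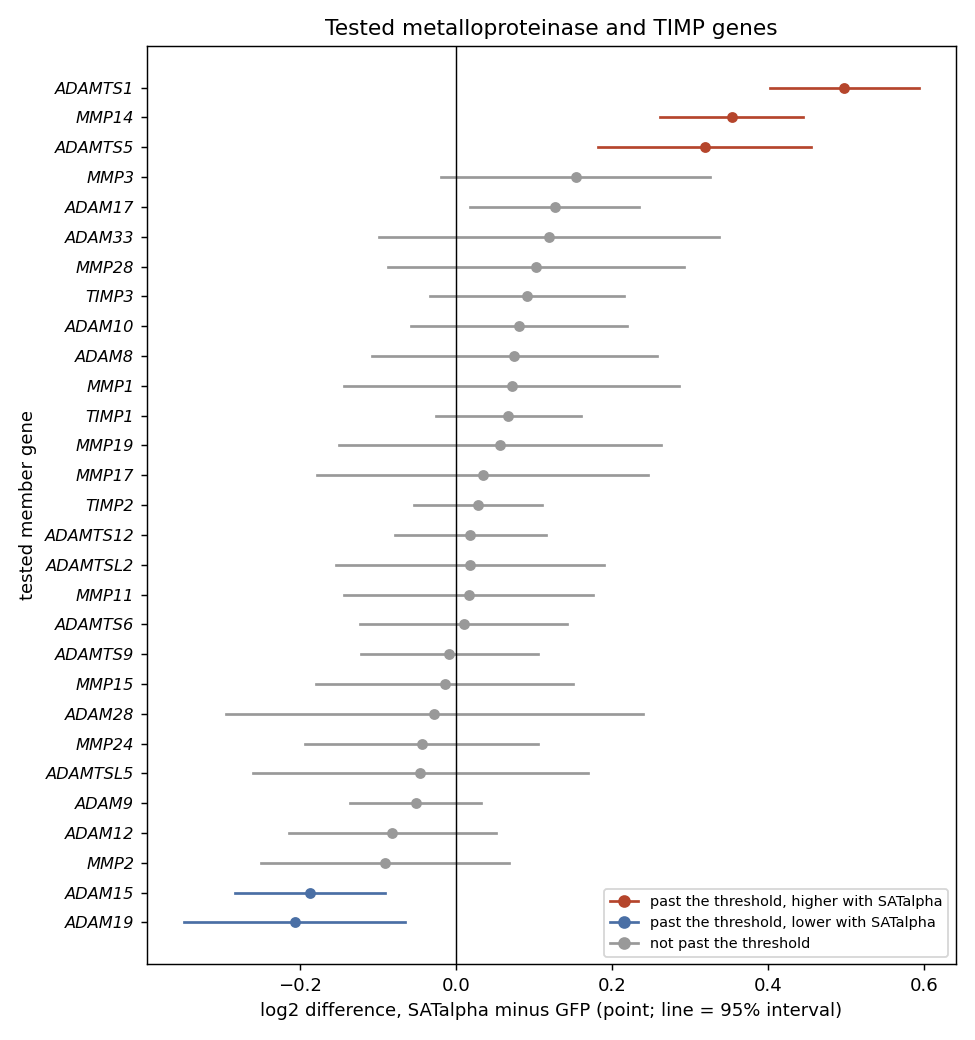
Log2 difference, SATalpha minus GFP, of the 29 tested member genes on the horizontal axis, with the limma estimate as a point and its 95% interval as a line, n = 3 arrays per group. ADAMTS1, MMP14 and ADAMTS5 lie to the right of 0 and ADAM15 and ADAM19 to the left, each past the threshold. The estimates of the others lie between -0.09 and 0.15.

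Of the members that moved, the RefSeq promoter table (build GRCh38.p14) held MMP14, ADAM15 and ADAM19. It also held TIMP3, of which 2 probe sets rose. The 250 bases before each gene start are shown so that the sequence upstream of genes that went up and down can be read side by side. Capitals mark the GC box GGGCGG, on either strand, which Sp1-type factors recognise.
MMP14, chr14:22836335-22836584, plus strand: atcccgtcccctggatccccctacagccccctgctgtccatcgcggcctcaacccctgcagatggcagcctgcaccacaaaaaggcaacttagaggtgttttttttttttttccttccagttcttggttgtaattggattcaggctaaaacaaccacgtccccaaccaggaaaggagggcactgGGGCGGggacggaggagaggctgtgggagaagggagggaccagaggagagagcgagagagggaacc
TIMP3, chr22:32801455-32801704, plus strand: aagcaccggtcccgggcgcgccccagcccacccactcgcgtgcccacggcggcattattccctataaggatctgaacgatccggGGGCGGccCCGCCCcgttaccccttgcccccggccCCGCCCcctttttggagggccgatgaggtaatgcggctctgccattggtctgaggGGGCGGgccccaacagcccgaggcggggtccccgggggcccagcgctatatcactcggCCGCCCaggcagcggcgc
ADAM15, chr1:155051066-155051315, plus strand: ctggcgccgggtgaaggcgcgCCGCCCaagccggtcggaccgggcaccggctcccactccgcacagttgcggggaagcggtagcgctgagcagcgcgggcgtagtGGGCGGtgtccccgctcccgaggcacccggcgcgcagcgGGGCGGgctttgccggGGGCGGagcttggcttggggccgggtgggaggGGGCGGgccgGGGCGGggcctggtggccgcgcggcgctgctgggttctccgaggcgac
ADAM19, chr5:157575776-157576025, minus strand: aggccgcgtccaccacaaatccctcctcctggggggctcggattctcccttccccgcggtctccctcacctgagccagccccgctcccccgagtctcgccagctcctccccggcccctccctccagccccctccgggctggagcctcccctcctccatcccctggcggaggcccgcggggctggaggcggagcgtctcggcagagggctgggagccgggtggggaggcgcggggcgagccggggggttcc

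The GC box occurred 1 time before MMP14, 5 times before TIMP3, 6 times before ADAM15 and 0 times before ADAM19, so genes that fell included both the most and the fewest matches. It was present in 28 of the 43 promoters that the table held for 42 member genes (65.1%) and in 42.6% of all 35116 promoters in the table. Members were limited to protein-coding genes and the full set of promoters was not, and the shares were not tested against each other. The AP-1 motif TGANTCA, the EGR1 motif GCGGGGGCG and the TATA box TATAAA, searched on both strands, were in none of the 4 windows shown. They were in 4, 4 and 8 of the 43 member promoters (9.3%, 9.3% and 18.6%) and in 6.57%, 4.72% and 10.7% of all promoters. The EGR1 motif can overlap a GC box. A match describes the letters and shows no binding.

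The proteoglycan-cleaving ADAMTS proteases held the largest change. ADAMTS1, a secreted protease of aggrecan and versican that also restrains angiogenesis, read 10.88, 10.82 and 10.88 in SATalpha cells, against 10.27, 10.44 and 10.37 in GFP cells (log2 signal). The lowest SATalpha array stood well above the highest GFP array. The means were 10.86 ± 0.03 in SATalpha cells and 10.36 ± 0.08 in GFP cells (SD, n = 3 each), which is 0.50 on the log2 scale (SE 0.04, adjusted p = 4.49e-06 by limma), or 1.41-fold. Its other probe set rose more, by 0.65 (SE 0.06, adjusted p = 1.48e-05 over probe sets), or 1.57-fold, with at least 8.69 in SATalpha cells and at most 8.21 in GFP cells.

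ADAMTS5, an aggrecanase, lies next to ADAMTS1 among the protein-coding genes of chromosome 21 in RefSeq. It read 7.60, 7.51 and 7.45 in SATalpha cells, against 7.28, 7.16 and 7.17 in GFP cells. The groups did not overlap, and the difference was 0.32 (SE 0.06, limma adjusted p = 0.00311), or 1.25-fold. Its 3 other probe sets differed in the same direction, by 0.17 to 0.27, without passing the threshold over probe sets. ADAMTS9, the other tested protease of this group, differed by -0.01 (95% interval -0.12 to 0.10), with 8.46, 8.50 and 8.62 in SATalpha cells and 8.55, 8.55 and 8.50 in GFP cells. ADAMTS4, ADAMTS8, ADAMTS15 and ADAMTS20 lay below the floor.

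The remaining ADAMTS and ADAMTS-like genes showed no call. ADAMTS6 and ADAMTS12 differed by 0.01 and 0.02, and ADAMTSL2 and ADAMTSL5 by 0.02 and -0.05, all 4 with overlapping groups. The procollagen N-proteinases ADAMTS2, ADAMTS3 and ADAMTS14, which trim fibrillar collagen precursors, were below the floor.

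**Figure D2:**
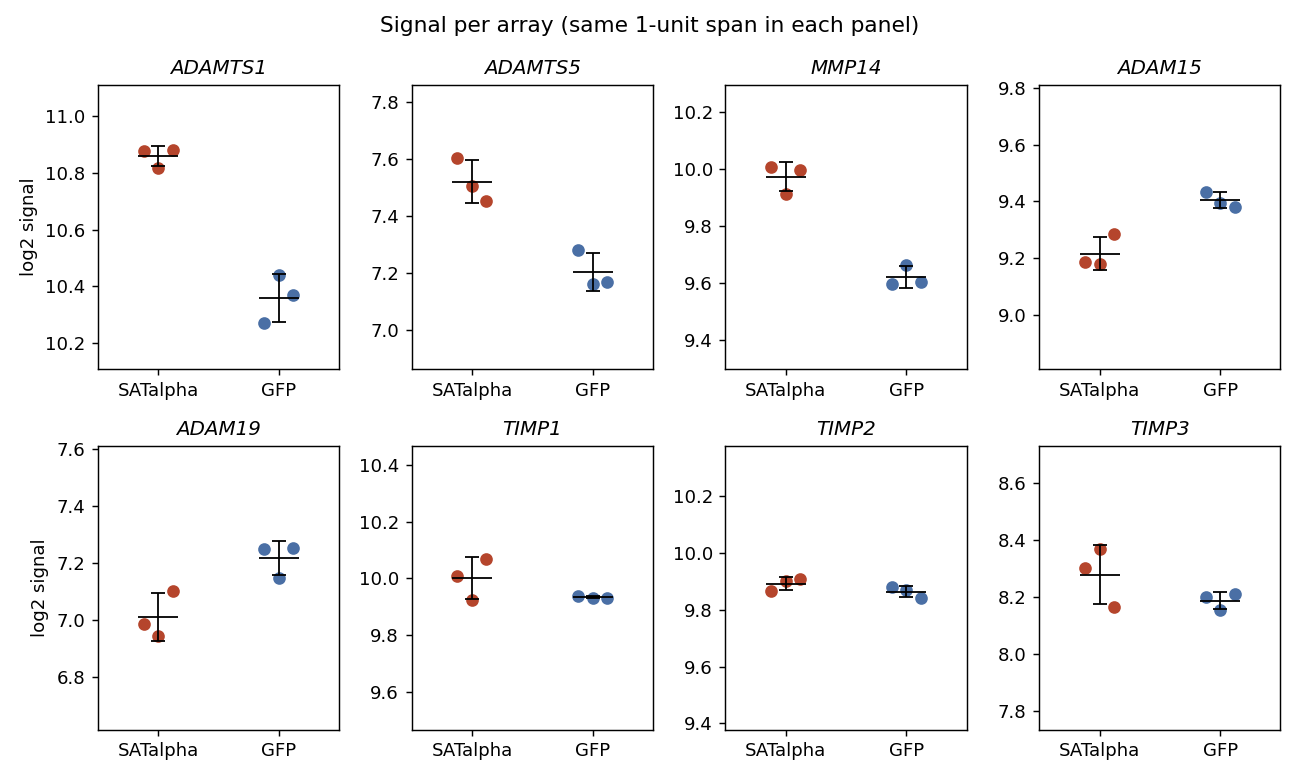
Log2 signal of 8 member genes on the vertical axis, with each array as a point, the SATalpha arrays left of the GFP arrays, and the mean ± SD as a bar (n = 3); every panel spans 1 log2 unit. ADAMTS1, ADAMTS5 and MMP14 were higher and ADAM15 and ADAM19 lower in SATalpha cells without overlap, while the arrays of TIMP1, TIMP2 and the brightest TIMP3 probe set overlapped.

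Among membrane-type MMPs, 1 of 4 tested genes was called (25%, against 20.8% of all tested genes). MMP14 (MT1-MMP), which cuts fibrillar collagen at the cell surface and activates the precursor of MMP2 in a complex with TIMP2, read 10.01, 9.91 and 10.00 in SATalpha cells, against 9.59, 9.66 and 9.60 in GFP cells. The 2 groups lay apart by more than the spread within either. The means were 9.97 ± 0.05 in SATalpha cells and 9.62 ± 0.04 in GFP cells (SD, n = 3 each), and the difference was 0.35 (SE 0.04, limma adjusted p = 7.03e-05), or 1.28-fold. Of its 3 other probe sets, 2 also rose (0.21 and 0.20, adjusted p = 0.0243 and 0.0195 over probe sets) and 1 differed by 0.12, and averaged over all 4 the gene rose by 0.22 (limma adjusted p = 0.00236). MMP15, MMP17 and MMP24 differed by -0.02, 0.03 and -0.04.

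MMP2, the gelatinase that MMP14 activates, read 6.52, 6.68 and 6.73 in SATalpha cells, against 6.81, 6.69 and 6.72 in GFP cells. The groups overlapped and the difference was -0.09 (95% interval -0.25 to 0.07, limma adjusted p = 0.422). MMP9, the other gelatinase, was below the floor.

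Secreted collagenases and stromelysins showed no call. MMP1, a collagenase, read 5.94, 6.32 and 6.14 in SATalpha cells, against 5.98, 6.20 and 6.01 in GFP cells, a difference of 0.07 (95% interval -0.14 to 0.29). MMP3, a stromelysin that can activate other MMPs, was higher in all 3 SATalpha arrays (5.79, 5.79 and 5.72) than in the 3 GFP arrays (5.63, 5.58 and 5.63), but its 0.15 did not pass (SE 0.08, limma adjusted p = 0.196). It had the largest difference among tested members that did not pass. MMP28 and ADAM33, also named for the size of their differences, were at 0.10 (adjusted p = 0.454) and 0.12 (adjusted p = 0.447), and the second tested probe set of ADAM33 was at -0.25. MMP11 and MMP19 differed by 0.02 and 0.06.

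A run of 9 MMP genes that are neighbours on chromosome 11 in RefSeq (MMP7, MMP20, MMP27, MMP8, MMP10, MMP1, MMP3, MMP12 and MMP13) was mostly dim. Of these, MMP1 and MMP3 alone were tested. The floor is a rank among genes, not a detection limit, so the others are below the tested range and not shown to be absent.

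Of 9 tested ADAMs, 2 were called (22.2%, against 20.8% of all tested genes), and both fell. The median difference of the 9 was -0.03, against -0.02 over all tested genes. ADAM15, a membrane protease that also binds integrins and cleaves adhesion proteins, read 9.19, 9.18 and 9.28 in SATalpha cells, against 9.43, 9.40 and 9.38 in GFP cells. All 3 SATalpha arrays were lower, and the difference was -0.19 (SE 0.04, limma adjusted p = 0.00935). Its probe sets disagreed: of 6 tested, the 2 brightest fell (-0.19 and -0.17 over probe sets), the next of negative sign was at -0.11, and the remaining 3 were at 0.04 to 0.11 without passing. Averaged over its 6 probe sets the gene differed by -0.05 (limma adjusted p = 0.515). Without GFP replicate 1 the call was also lost (-0.17, adjusted p = 0.0602).

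ADAM19, a sheddase of neuregulin, read 6.98, 6.94 and 7.10 in SATalpha cells, against 7.25, 7.15 and 7.25 in GFP cells. The groups were apart by less than 0.05, and the difference was -0.21 (SE 0.07, limma adjusted p = 0.0393). This call was the least stable of the 5. It was lost on leaving out any 1 of 4 arrays (SATalpha replicates 1 and 2, GFP replicates 1 and 3), with values of -0.19 to -0.17, with no filter, and among probe sets (adjusted p = 0.0544). As the mean of its 4 probe sets the difference was -0.01.

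ADAM17, the main sheddase of tumour necrosis factor and of EGF receptor ligands, was higher in each SATalpha array (8.82, 8.71 and 8.75) than in any GFP array (8.56, 8.67 and 8.67). The difference of 0.13 did not pass (SE 0.05, 95% interval 0.02 to 0.24, limma adjusted p = 0.0935). All 3 of its tested probe sets were above 0, and the dimmest of them rose by 0.40 (SE 0.11, adjusted p = 0.0239 over probe sets), with 5.12, 5.19 and 5.29 in SATalpha cells and 4.62, 4.97 and 4.81 in GFP cells. Averaged over its 4 probe sets ADAM17 passed at 0.19 (limma adjusted p = 0.0441), and with array weights at 0.17 (limma adjusted p = 0.0135).

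ADAM10, the sheddase of Notch receptors and N-cadherin, differed by 0.08 (95% interval -0.06 to 0.22), with 7.01, 6.88 and 6.97 in SATalpha cells and 6.84, 6.89 and 6.88 in GFP cells. All 4 of its probe sets were above 0, by 0.08 to 0.15, and none passed. ADAM9, which cleaves surface growth factor precursors, read 11.06, 10.96 and 10.94 in SATalpha cells, against 11.07, 11.04 and 11.01 in GFP cells, a difference of -0.05 (95% interval -0.14 to 0.03). All 4 of its probe sets lay below 0, at -0.11 to -0.05, and none passed. ADAM12 was at -0.08 (adjusted p = 0.382), and ADAM8 and ADAM28 were at 0.07 and -0.03. All 9 tested ADAMs were among the 12 members listed as having a zinc-binding protease motif. None of the 7 members without one (ADAM2, ADAM11, ADAM18, ADAM22, ADAM23, ADAM29 and ADAM32) reached the floor.

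Of the TIMPs, TIMP1, TIMP2 and TIMP3 were tested and none passed as genes. TIMP1, which inhibits most secreted MMPs, read 10.01, 9.92 and 10.07 in SATalpha cells, against 9.94, 9.93 and 9.93 in GFP cells, a difference of 0.07 (95% interval -0.03 to 0.16). TIMP2 read 9.87, 9.90 and 9.91 in SATalpha cells, against 9.88, 9.87 and 9.84 in GFP cells, a difference of 0.03 (95% interval -0.05 to 0.11). Both intervals leave out the 0.35 of the brightest MMP14 probe set, while that of TIMP1 includes the 0.12 of the dimmest. They are those of the brightest TIMP probe sets. The other probe sets were at -0.03 and 0.01 for TIMP1 and at 0.02 for TIMP2. The TIMPs were not tested against MMP14. TIMP4 was below the floor.

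TIMP3, the matrix-bound TIMP that also inhibits ADAM17 and the aggrecanases, depended on the probe set. Its brightest, which by Affymetrix naming can match several transcripts, read 8.30, 8.37 and 8.16 in SATalpha cells, against 8.20, 8.15 and 8.21 in GFP cells, a difference of 0.09 (SE 0.06, limma adjusted p = 0.293). The second rose by 0.30 (SE 0.05, adjusted p = 0.0025 over probe sets), with 8.28, 8.29 and 8.38 in SATalpha cells and 7.98, 8.08 and 8.01 in GFP cells. The third rose by 0.35 (SE 0.07, adjusted p = 0.00405 over probe sets), with 7.09, 7.06 and 7.10 in SATalpha cells and 6.67, 6.83 and 6.71 in GFP cells. In both of these the groups did not overlap. TIMP3 passed when averaged over its 3 probe sets (0.25, limma adjusted p = 0.00178) and with its brightest unique probe set in place of the first (0.30, limma adjusted p = 0.00131).

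**Figure D3:**
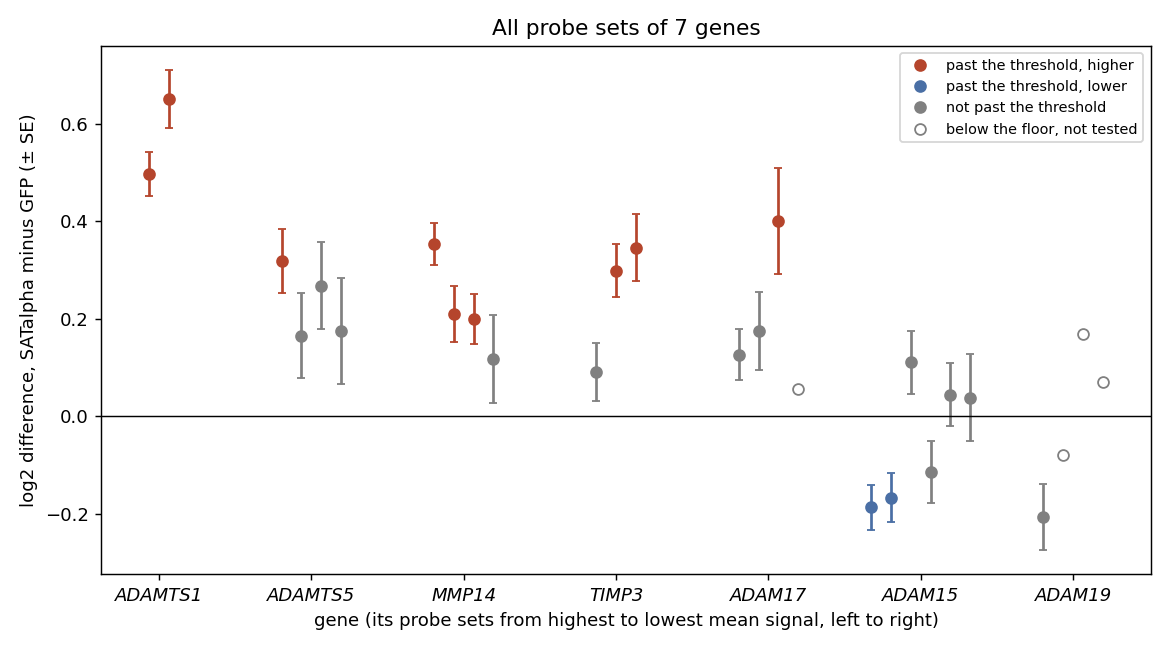
Log2 difference, SATalpha minus GFP, of every probe set of 7 member genes on the vertical axis, with the limma SE as a bar; open circles are below the floor and were not tested. All probe sets of ADAMTS1, ADAMTS5, MMP14, TIMP3 and ADAM17 lie above 0, while those of ADAM15 and ADAM19 lie on both sides.

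Across probe sets, 72 of the 176 member probe sets were tested; 9 rose and 2 fell, against 7.84% and 7.97% of all tested probe sets. These 11 are 15.3%, against 15.8% of all 29576 tested probe sets, and belong to 6 genes: ADAMTS1, ADAMTS5, MMP14, TIMP3, ADAM17 and ADAM15. Of the member probe sets 27.8% had groups that did not overlap, against 33.7% of all tested probe sets. Probe sets of a gene share its RNA and are not replicates. Of the 20 genes with more than 1 tested probe set, 13 had all of them on the same side of 0.

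The 39 genes below the floor had raw differences of -0.26 to 0.29. In 4 of them the groups did not overlap: MMP20, ADAMTS17 and ADAMTSL1 were higher and ADAMTS18 lower in SATalpha cells, chosen after their values were seen. Among all 7253 genes below the floor the groups did not overlap in 15%.

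Genes that activate, guide or oppose these proteases, or are cut by them, were read from 7 lists. Of 52 tested members 6 rose and 5 fell, or 21.2%, close to the 20.8% of all genes. Their median difference was -0.02.

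Plasminogen activation, which feeds the protease cascade that activates several MMPs, had 3 calls among 4 tested genes. That is 75% of a short list, against 20.8% of all tested genes. Of the 3 calls, that of PLAU alone was kept as the mean of all probe sets. PLAU, the urokinase activator, averaged 9.38 ± 0.04 in SATalpha cells and 9.74 ± 0.03 in GFP cells (SD, n = 3 each) and fell by 0.36 (SE 0.04, limma adjusted p = 5.94e-05). PLAT, the tissue activator, fell by 0.30 (SE 0.07, adjusted p = 0.00802). Both had a probe set on the other side of 0 (0.13 for PLAU and 0.19 for PLAT), and averaged over its probe sets PLAT lost the call (-0.17, adjusted p = 0.0979) while PLAU kept it (-0.19, adjusted p = 0.0236). PLAUR, the urokinase receptor, rose by 0.13 (adjusted p = 0.0488), a call lost without any 1 of the 6 arrays, and its other probe sets were at -0.15 to -0.05. SERPINE2, an inhibitor of these activators, differed by 0.10 without passing, and its other probe sets were at 0.11 to 0.34.

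Among 11 AP-1 and ETS factors, which bind many MMP promoters, 2 rose and 1 fell (27.3%, against 20.8% of all tested genes). JUN averaged 10.83 ± 0.03 in SATalpha cells and 10.43 ± 0.02 in GFP cells (SD, n = 3 each), a rise of 0.40 (SE 0.04, limma adjusted p = 5.25e-06). JUND rose by 0.31 (SE 0.06, adjusted p = 0.0029). FOSL2, a partner of JUN proteins, fell by 0.56 (SE 0.06, adjusted p = 1.28e-05). Other probe sets spanned -0.26 to 0.44 for JUN and -0.18 to 0.30 for FOSL2. Averaged over its probe sets JUN was at 0.24 (limma adjusted p = 0.000907), and FOSL2 was at -0.05 as the mean of all of them, without passing.

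The proprotein convertases, which remove the inhibitory prodomains of membrane-type MMPs and ADAMs, had 1 call among 3 tested genes. That is 33.3%, against 20.8% of all tested genes. PCSK5 fell by 0.29 (SE 0.08, limma adjusted p = 0.0249), while FURIN differed by -0.06. The PCSK5 call was lost without SATalpha replicate 1, GFP replicate 1 or GFP replicate 2 (-0.26, -0.30 and -0.22), and as the mean of its probe sets (-0.19, adjusted p = 0.119). Of 9 trafficking partners of ADAM10 and ADAM17, 1 was called (11.1%). FRMD8, which holds the iRhom and ADAM17 complex at the surface, rose by 0.25 (SE 0.07, adjusted p = 0.0235). With its unique probe set in place of one that can match several transcripts it was at 0.02. The other FRMD8 probe sets spanned 0.02 to 0.28, and as the mean of all of them the call was kept (0.18, limma adjusted p = 0.0494). The call was also lost without SATalpha replicate 2, SATalpha replicate 3 or GFP replicate 1 (0.24, 0.21 and 0.19). The iRhom genes RHBDF1 and RHBDF2 were at 0.04 and -0.03.

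Of 13 tested shed substrates of ADAM10 and ADAM17, 3 were called (23.1%, against 20.8% of all tested genes). The proteoglycan SDC4 rose by 0.18 (limma adjusted p = 0.00703) and the EGF receptor ligand BTC by 0.23 (adjusted p = 0.0373). The TNF receptor TNFRSF1A fell by 0.19 (adjusted p = 0.0371). Its other probe sets spanned -0.25 to 0.10, and as the mean of all probe sets its call was lost. The SDC4 call was lost without GFP replicate 1 (0.16), and those of BTC and TNFRSF1A without any 1 array other than SATalpha replicate 3 (0.19 to 0.26 and -0.21 to -0.16). None of the 7 tested matrix substrates passed by limma (0 at an unadjusted p under 0.05). NID1 was at 0.16 and BGN at 0.12, and VCAN, a main ADAMTS1 substrate, was below the floor. None of 5 other inhibitors, inducers and clearance receptors passed (2 at an unadjusted p under 0.05). RECK, a membrane inhibitor of MMP14, was at 0.18 (adjusted p = 0.0816) and the MMP inducer BSG at -0.10 (adjusted p = 0.114).

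**Figure D4:**
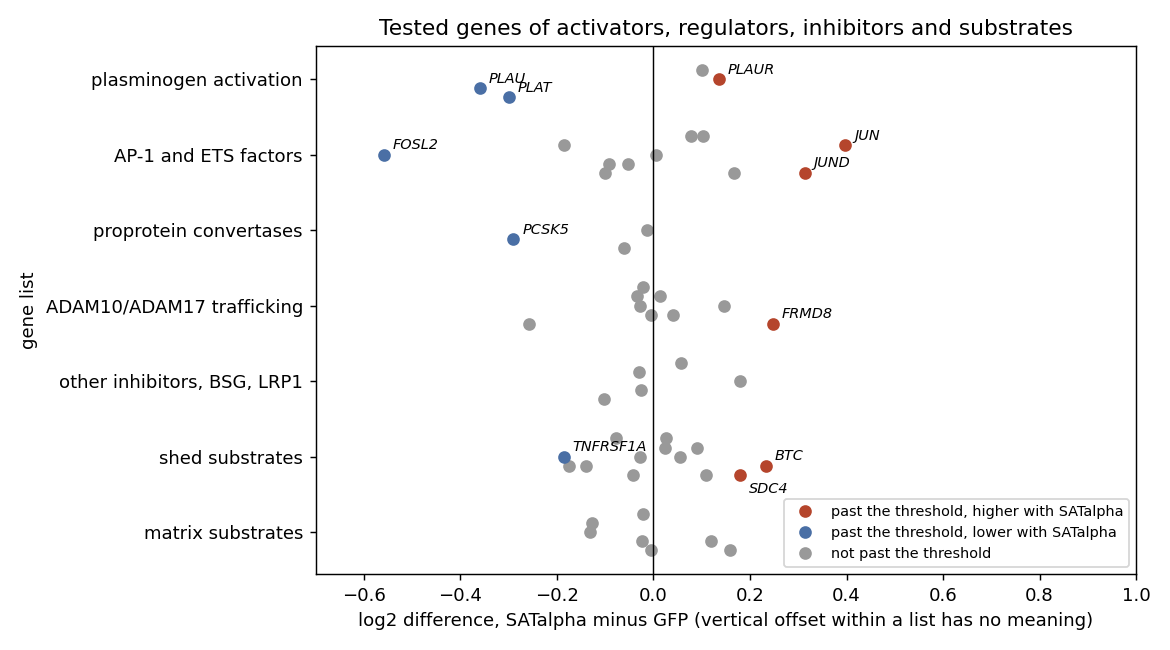
Log2 difference, SATalpha minus GFP, on the horizontal axis for the tested genes of 7 lists, 1 point per gene, with the names of those past the threshold. PLAU, PLAT, FOSL2, PCSK5 and TNFRSF1A lie below 0, and JUN, JUND, FRMD8, BTC, SDC4 and PLAUR above it.

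The identity of the cells was read from marker lists. Of 9 retinal pigment epithelium markers 4 lay above the floor (MITF, OTX2, PMEL and SERPINF1) and RPE65, RLBP1, BEST1, TYRP1 and TTR did not. Limma called 0 of these 4 (0 at an unadjusted p under 0.05). The mean of the 9 was 5.40 to 5.46 over the SATalpha arrays, against 5.46 to 5.48 over the GFP arrays, so the ranges barely met, with SATalpha at the lower end. Of the markers of other cells, 1 of 5 for leukocytes, 3 of 4 for endothelium and 1 of 7 for fibroblasts lay above the floor, and limma called 0 of these 5 (0 at an unadjusted p under 0.05). The mean leukocyte level was 4.27 to 4.30 in SATalpha arrays and 4.21 to 4.40 in GFP arrays. The mean endothelial level was 4.81 to 4.99 in SATalpha arrays and 4.79 to 4.92 in GFP arrays, and the mean fibroblast level 3.76 to 3.81 in SATalpha arrays and 3.79 to 3.87 in GFP arrays, so all 3 ranges overlapped. Within each list single markers lay on both sides of 0, from -0.23 (CD3E) to 0.14 (LYZ) for leukocytes, from -0.09 (CDH5) to 0.19 (PECAM1) for endothelium and from -0.14 (LUM) to 0.06 (COL1A1) for fibroblasts. The keratins KRT7, KRT8 and KRT18 fell (3 of 3 tested, where 13% of all tested genes fell), with differences of -0.21, -0.13 and -0.21. KRT19 was below the floor. The mean of 4 keratins was 9.63 to 9.76 over the SATalpha arrays, against 9.80 to 9.89 over the GFP arrays, and whether the keratin or pigment epithelium levels have a part in the metalloproteinase differences was not tested.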

How the data were processed

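Per the labels' protocols, RNA was amplified and biotin-labelled with a 3′ IVT kit. The authors deposited log2 values normalized between arrays. MAS5 and RMA are both named in the submitters' processing notes, and which was used is not stated. That they are log2 was read from their range, since a natural log of a scanner value cannot reach the maximum of 14.3. No detection calls were used. Array medians were 5.29 to 5.31.

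Gene names came from the platform table: 44988 probe sets had 1 symbol, 1832 several and 2473 none, and 79 were controls. Groups were compared with limma 3.58.1 in R 4.3.3 (trend, Benjamini-Hochberg over 10879 genes, threshold 0.05) and again over 29576 probe sets with a floor of 4.62. The number of arrays limits the precision (median SE 0.06). No genome build is named for the values, and coordinates are those of the promoter table.

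Genes named are all called members, 11 fixed members, besides these the 4 largest differences that did not pass, the 5 brightest, those with a called probe set, and up to 4 called genes per list (2 where none). Members and lists were chosen with earlier results of these data known. The labels' protocols state no pairing, and numbers were not treated as pairs. Same-numbered arrays did not deviate together (correlations -0.003, -0.24 and -0.29). These are deviations from the mean of 3 arrays, so they cannot settle whether the numbers mark pairs. Alternatives were other filters, quantile normalization, median centring, other choices of probe set, a replicate block, no trend, array weights and each array left out.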

Additional observations from a re-analysis of the deposited data

How the results depend on the processing

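ADAMTS1, ADAMTS5 and MMP14 kept their direction and call under all 15 alternatives, with differences of 0.45 to 0.65, 0.23 to 0.36 and 0.22 to 0.38. ADAM15 lost its call under 2 of 15 alternatives and ADAM19 under 7 of 14. Without _s_at and _x_at probe sets ADAM19 was not tested. The number of called members was 4 with no filter or a replicate block, 6 with array weights, 5 under the others and 3 to 5 with an array left out (3 without GFP replicate 1). The higher members numbered 5 as the mean of all probe sets. The lower members numbered 0 as the mean of all probe sets, 1 with no filter, without _s_at and _x_at probe sets or with a replicate block, and 0 to 2 with an array left out. Called member probe sets were 7 with a replicate block and 6 to 12 with an array left out. Over all genes the calls were 1300 with a replicate block (483 higher, 817 lower) and 1216 to 2520 with an array left out (474 to 898 higher, 742 to 1622 lower). Over all probe sets they were 2628 with a replicate block, 3115 without _s_at and _x_at probe sets, 3067 with no mean-variance trend and 2331 to 4928 with an array left out. Called genes of the 7 lists were 7 with a replicate block and 5 to 13 with an array left out. PLAUR reversed, to -0.057 as the mean of all probe sets and -0.047 without _s_at and _x_at probe sets. Whether the replicate numbers pair the arrays is not known. With the block the calls of ADAM19 (limma adjusted p = 0.076), PCSK5 (0.0668), PLAUR (0.119), TNFRSF1A (0.0677) and BTC (0.0925) were lost. Leaving out an array leaves fewer samples, though without SATalpha replicate 3 the gene calls rose to 2520. Without _s_at and _x_at probe sets fewer probe sets were left to test. The cause of the other shifts was not tested. Without detection calls, signal could not be set against background, and changes of dim genes may be understated.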
